A study of Mus musculus with 8 samples.

Results

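The 9 genes described here serve pigment formation and the visual cycle, which are best known from the eye. They were taken by name: Mitf, Tyr, Tyrp1, Dct, Pmel, Rpe65, Rdh5, Rlbp1 and Lrat, with all probe sets to which the array annotation gives one of these as the single gene. This gave 15 probe sets for 9 genes, out of 45037 probe sets for 18193 named genes. A further probe set, annotated to Rdh5 together with its neighbour Bloc1s1, is not a member. The tissue was the choroid plexus of the fourth ventricle at embryonic day 13 in the mouse, an epithelium over a vascular stroma that secretes cerebrospinal fluid. Of the 8 arrays, 4 came from embryos labelled as Otx2 knockouts (Otx2_KO) and 4 from wildtype embryos of the same litters. All had a mixed strain background, were of undetermined sex, received no treatment and are called separate biological replicates. The labels refer the knockouts to a published Otx2-deficient strain. The sources used here give neither the allele, a Cre driver or the cells of the deletion, nor the number of embryos per sample.

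Otx2 is a transcription factor with a homeodomain that is made in forebrain and midbrain, choroid plexus and eye, where it acts with Mitf in the retinal pigment epithelium. Mitf is a basic helix-loop-helix factor that switches on melanin genes: Tyr encodes tyrosinase, the first enzyme of melanin synthesis, Tyrp1 and Dct encode related later enzymes, and Pmel encodes the fibril on which melanin is laid down in the melanosome. In the visual cycle, retinal pigment epithelium turns all-trans retinol back into 11-cis retinal: Lrat esterifies retinol, Rpe65 isomerises the ester, Rdh5 oxidises 11-cis retinol, and Rlbp1, also known as CRALBP, carries the 11-cis forms. The choroid plexus epithelium, like the pigment epithelium, is of neuroepithelial origin and handles retinoids, but it forms no visual pigment.

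In all, 4 genes of the set were lower in the arrays labelled knockout, and the melanin enzymes were not among them. In the test across all probe sets (limma, adjusted p under 0.05), 5 of the 15 member probe sets were lower, 0 were higher and 10 did not pass. Over all probe sets 7.46% were lower and 5.27% higher. The 5 were both Mitf probe sets, Rdh5, Rlbp1 and 1 of the 2 of Lrat, with measured signals 1.84-fold (Lrat, a dim signal) to 2.97-fold lower. In each of these 5 the groups of arrays did not overlap, which over all probe sets was so for 10.8% in that direction and for 8.04% in the other. The median difference was -0.17 log2 units over the 15 and 0.01 over all probe sets.

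The sequence before the annotated start of each of these 4 genes is shown because all 4 were lower. The windows come from RefSeq (GRCm38.p6), which held 10 starts for 8 of the 9 members, each with 250 bases before and 50 after the start. A set of 3 motifs was searched on both strands: TAATCC, the core bound by OTX-type homeodomains, CATGTG, the E-box in the M-box of melanin genes that Mitf binds, and CACGTG, the palindromic E-box. They do not overlap one another. Capitals mark every match inside a printed stretch. The stretches run from 250 bases before the start to the base before it, on the strand of the gene: chr7:79387028-79387277 (minus strand) for Rlbp1, chr10:128919298-128919547 (minus) for Rdh5, chr3:82903975-82904224 (minus) for Lrat and chr6:97929567-97929816 (plus) for the middle of 3 Mitf starts, the one with a match.
Rlbp1: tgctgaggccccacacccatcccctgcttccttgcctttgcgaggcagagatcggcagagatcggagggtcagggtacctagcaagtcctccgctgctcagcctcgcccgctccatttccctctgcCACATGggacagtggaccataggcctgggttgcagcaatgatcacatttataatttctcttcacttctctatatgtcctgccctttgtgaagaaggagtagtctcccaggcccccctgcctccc
Rdh5: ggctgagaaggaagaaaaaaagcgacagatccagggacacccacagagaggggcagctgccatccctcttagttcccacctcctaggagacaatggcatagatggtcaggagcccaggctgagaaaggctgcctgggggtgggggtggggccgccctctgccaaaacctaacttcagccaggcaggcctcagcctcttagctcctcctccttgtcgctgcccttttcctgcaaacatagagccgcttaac
Lrat: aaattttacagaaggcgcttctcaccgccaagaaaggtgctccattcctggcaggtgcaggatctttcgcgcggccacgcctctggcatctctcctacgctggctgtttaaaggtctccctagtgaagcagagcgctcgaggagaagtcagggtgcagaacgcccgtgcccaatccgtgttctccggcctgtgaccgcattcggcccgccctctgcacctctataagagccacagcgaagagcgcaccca
Mitf: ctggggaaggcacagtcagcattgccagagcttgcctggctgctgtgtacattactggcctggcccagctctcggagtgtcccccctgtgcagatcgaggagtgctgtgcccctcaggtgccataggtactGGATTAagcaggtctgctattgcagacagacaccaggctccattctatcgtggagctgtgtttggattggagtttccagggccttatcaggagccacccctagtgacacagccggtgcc

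The shorter stretches below belong to genes that did not pass the test, and each holds a match. They cover the last 60 bases before the start of Tyr (chr7:87493513-87493572, minus strand), Tyrp1 (chr4:80834153-80834212, plus) and Rpe65 (chr3:159599121-159599180, plus), and 60 bases of Dct that begin at position -160 (chr14:118052347-118052406, minus).
Tyr: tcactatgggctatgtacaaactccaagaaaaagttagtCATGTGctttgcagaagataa
Tyrp1: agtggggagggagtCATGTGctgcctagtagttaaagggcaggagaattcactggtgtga
Dct: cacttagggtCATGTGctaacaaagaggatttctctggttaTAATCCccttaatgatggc
Rpe65: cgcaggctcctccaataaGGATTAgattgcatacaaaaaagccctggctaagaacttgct

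TAATCC or its reverse complement occurred in 4 of the 10 windows: once each in Mitf (middle start), Tyrp1, Dct and Rpe65. Over all 32851 RefSeq windows of this length the share was 7.06%. CATGTG occurred in 5 windows, those of Tyr, Tyrp1, Dct, Rpe65 and Rlbp1, against 14.2% of all windows. CACGTG occurred in 0, against 7.15%. Some matches lie outside the printed stretches: the OTX-type match of Tyrp1 (positions 5 to 10), and E-box matches of Dct (-232 to -227) and Rpe65 (-239 to -234). The windows of Rdh5, Lrat and the other two Mitf starts held none of these letters. Of the 4 genes that fell, Rlbp1 had an E-box match (positions -124 to -119) and Mitf an OTX-type match (-119 to -114). Tyrp1, Dct and Rpe65, which did not fall, each had both kinds. A match in these letters is a description of the window and shows no binding.

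**Figure D1:**
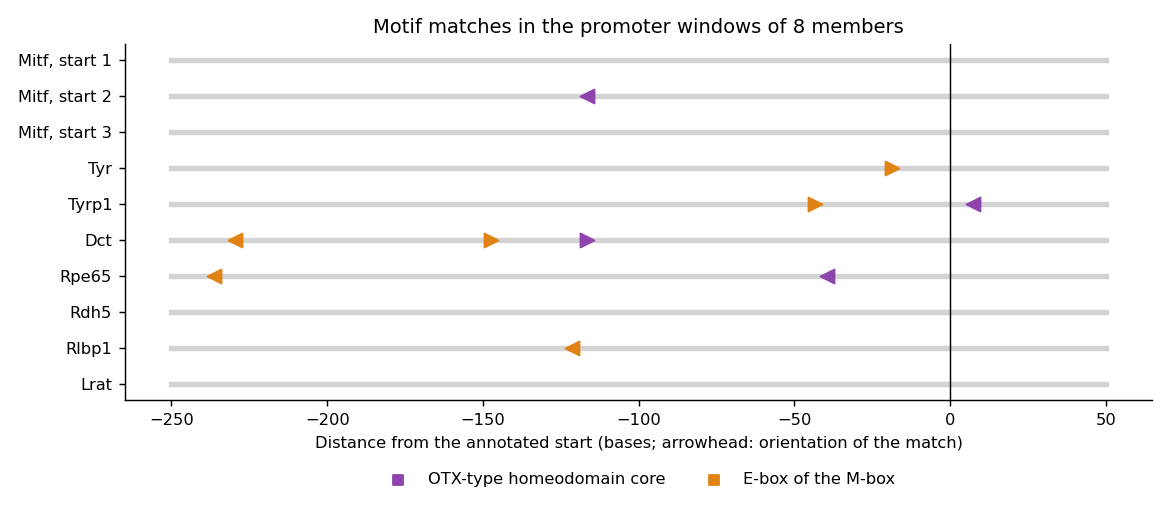
Matches to the OTX-type core and to the M-box E-box in the promoter windows of 8 members, by distance in bases from the annotated start; arrowheads give the orientation. Tyr, Tyrp1, Dct, Rpe65, Rlbp1 and the middle Mitf start carry matches, while Rdh5, Lrat and 2 of the 3 Mitf windows carry none.

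The targeted gene did not read lower. The only Otx2 probe set stood at 12.38, 12.46, 12.44 and 12.48 log2 units in knockout-labelled replicates 1 to 4 and at 12.00, 12.05, 11.97 and 11.85 in the wildtype arrays. The difference was 0.47 (SE 0.07, limma adjusted p = 0.00134), with the groups apart. No source used here places its probes inside or outside the deleted stretch, so the probe set is no check of the labels, and the direction of every difference rests on the labels alone.

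Mitf was lower in both of its probe sets. The brighter one, 1455214_at, read 8.84, 9.27, 9.13 and 9.20 log2 units in knockout-labelled replicates 1 to 4 and 10.36, 10.50, 10.40 and 10.51 in wildtype replicates 1 to 4. The lowest wildtype array lay above the highest knockout-labelled one, and knockout-labelled replicate 1 was the lowest of all. The difference was -1.33 (SE 0.10, limma adjusted p = 2.87e-05), a level 2.52-fold lower. The other probe set, 1422025_at, read 5.81, 6.04, 6.30 and 6.08 against 7.19, 7.42, 7.02 and 7.42. It was 2.30-fold lower (difference -1.20, SE 0.12, limma adjusted p = 0.000191). The differences of the 2 probe sets were 0.13 log2 units apart, which a test over arrays did not separate (exact permutation p = 0.343, two-sided). Mitf has several starts, and the annotation does not say which transcripts each probe set reads.

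Among the visual cycle genes, the carrier Rlbp1 had the largest fall. It stood at 6.05, 5.77, 6.28 and 6.06 log2 units in the knockout-labelled arrays and at 7.73, 7.65, 7.58 and 7.49 in the wildtype arrays. All wildtype arrays were more than 1 log2 unit above all knockout-labelled arrays. The group means were 6.04 ± 0.21 and 7.61 ± 0.10 (SD, n = 4 each), a 2.97-fold lower level (difference -1.57, SE 0.11, limma adjusted p = 2.12e-05).

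Rdh5, the 11-cis retinol dehydrogenase, was lower as well. Its values were 7.29, 6.78, 7.24 and 7.50 in the knockout-labelled arrays and 8.37, 8.39, 8.06 and 8.39 in the wildtype arrays. Knockout-labelled replicate 2 was the lowest, and wildtype replicate 3 stood below the other three wildtype arrays yet above every knockout-labelled one. The level was 2.14-fold lower (difference -1.10, SE 0.15, limma adjusted p = 0.00093). The probe set shared with Bloc1s1 gave 10.07 ± 0.15 against 10.19 ± 0.11 and did not pass (difference -0.12, adjusted p = 0.461). Its signal cannot be divided between both genes. The difference of Rdh5 exceeded that of the shared probe set by 0.97 in size (exact permutation p = 0.0286, two-sided, the smallest that 70 assignments allow, and 0.0856 adjusted over the 3 such comparisons made).

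Lrat, which makes the retinyl esters that Rpe65 uses, split by probe set. Probe set 1444487_at read 3.73, 4.07, 4.10 and 3.85 in the knockout-labelled arrays and 5.04, 4.80, 4.62 and 4.82 in the wildtype arrays, so the groups were apart. The signal was 1.84-fold lower (difference -0.88, SE 0.11, limma adjusted p = 0.000631). Probe set 1421345_at read between 2.52 and 2.92 in the knockout-labelled arrays and between 2.80 and 3.21 in the wildtype arrays, and did not pass (difference -0.26, 95% confidence interval -0.54 to 0.03, adjusted p = 0.242). The contrast between both probe sets was -0.62 (exact permutation p = 0.0571, two-sided, 0.0856 adjusted over 3). Within replicate numbers 1 to 4 it was -1.43, -0.43, -0.23 and -0.41, below 0 in 4 of 4 pairs, and an exact sign-flip test over those pairs gave the smallest p it can reach, 0.125 (two-sided). The mean of 1421345_at, 2.87, lies far under the lower quartile over the whole array (4.34), and that of 1444487_at, 4.38, lies at it, with all 4 knockout-labelled arrays under it. At such levels RMA values can be largely background, and they compress a difference. The 1.84-fold is thus a ratio of signals and not an exact ratio of transcript.

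Rpe65, the isomerase itself, read 4.23, 4.64, 4.34 and 4.10 in the knockout-labelled arrays and 4.38, 4.53, 4.10 and 4.25 in the wildtype arrays. The groups overlapped fully, and the mean also lay under the lower quartile. The difference was 0.01 with an interval from -0.27 to 0.30 (adjusted p = 0.971), so a fall of the size seen for Rlbp1 lies outside that interval for this signal. A transcript under the background level would not be seen.

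**Figure D2:**
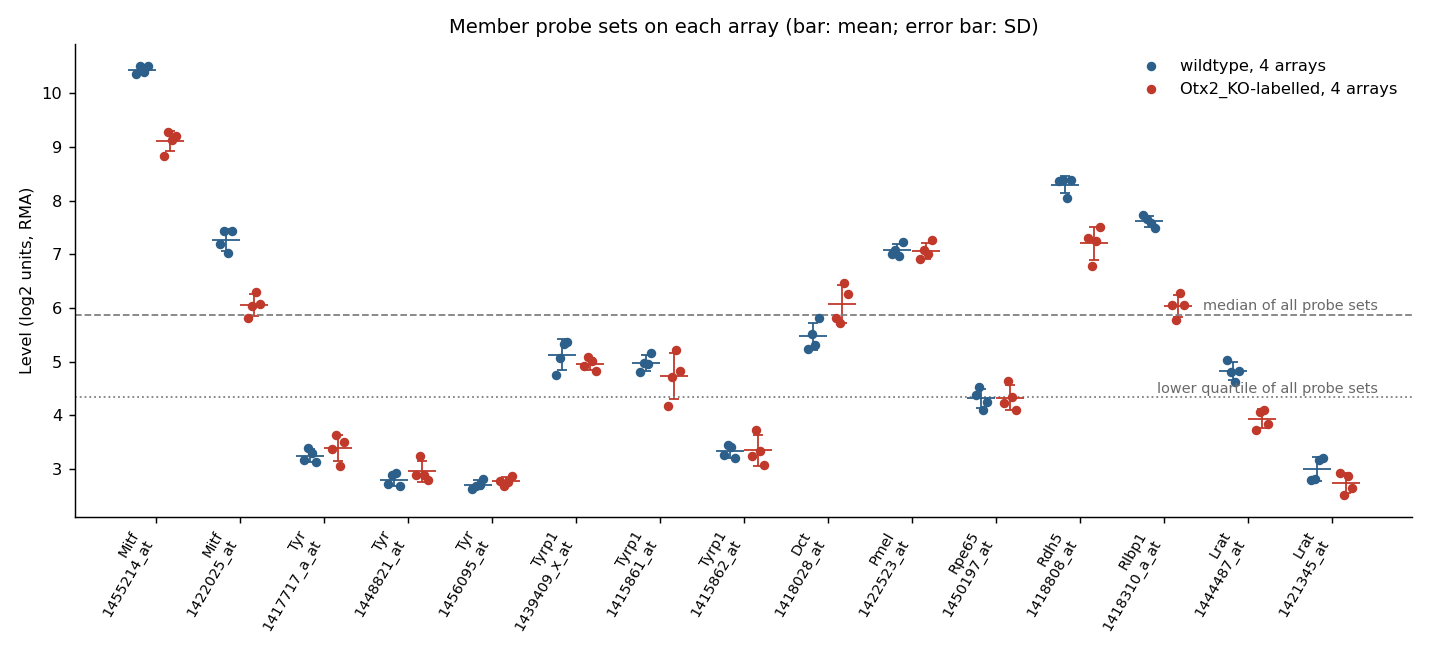
Level of each of the 15 member probe sets on each array, in log2 units, with the mean and SD of 4 arrays per group; dashed and dotted lines give the median (5.88) and lower quartile (4.34) of all probe sets. The groups stand apart for both Mitf probe sets, Rdh5, Rlbp1 and 1444487_at of Lrat, and overlap for the other 10.

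The melanin genes gave other values. The tyrosinase gene Tyr had 3 probe sets, with levels from 2.63 to 3.63 over all arrays and differences of 0.14, 0.16 and 0.07, none of which passed (adjusted p from 0.415 to 0.605). All 3 had means under the lower quartile. For Tyrp1, whose product acts late in melanin synthesis, the differences of the 3 probe sets were -0.17, -0.24 and 0.01 (adjusted p from 0.483 to 0.967). The sign of the third, 1415862_at, turned to -0.01 when arrays were centred on their medians. The widest Tyrp1 spread was in the knockout-labelled arrays of 1415861_at, from 4.17 in replicate 1 to 5.22 in replicate 3, which covered all wildtype values (4.81 to 5.16).

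Pmel, the melanosome fibril gene, stood above the median of all probe sets and differed least. Its values ran from 6.91 to 7.27 in the knockout-labelled arrays and from 6.97 to 7.22 in the wildtype arrays, and replicate 4 was the highest in both groups. The group means were 7.07 ± 0.15 and 7.07 ± 0.11 (SD, n = 4 each). The difference was -0.01 with an interval from -0.21 to 0.20 (adjusted p = 0.982), an interval that leaves out falls as large as those of Mitf.

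Dct, the dopachrome tautomerase gene, was the one melanin gene near the threshold, and it pointed the other way from Mitf. Its values were 5.82, 5.72, 6.47 and 6.26 in the knockout-labelled arrays against 5.24, 5.52, 5.32 and 5.81 in the wildtype arrays. Wildtype replicate 4 reached into the range of the knockout-labelled arrays, of which replicates 3 and 4 were highest. The difference was 0.60, or 1.51-fold (SE 0.18, interval 0.20 to 1.00, limma adjusted p = 0.0570), and did not pass. With the replicate number as a block it did (limma adjusted p = 0.0386). It also did with 1 probe set per gene (0.0455), array weights (0.0250), a trended robust variance prior (0.0399), without knockout-labelled replicate 2 (0.0211) and without wildtype replicate 4 (0.0441). In the other 6 fits that left out 1 array the adjusted p lay up to 0.150.

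**Figure D3:**
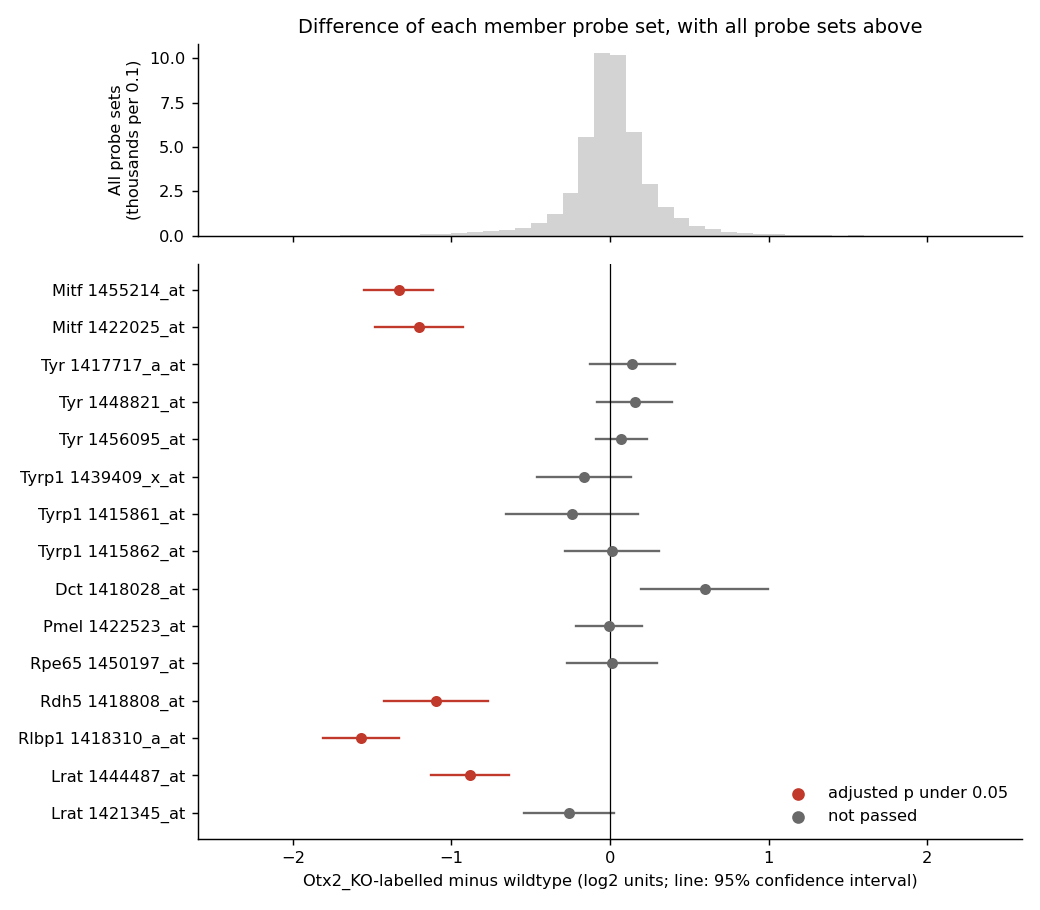
Knockout-labelled minus wildtype difference of each member probe set in log2 units with its 95% confidence interval, below a histogram of the differences of all 45037 probe sets. The 5 that passed lie between -1.57 and -0.88; the other 10 lie between -0.26 and 0.60.

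The fall of these members went with a fall of most of the epithelium's own markers. Of 15 measured markers of the choroid plexus epithelium 14 were lower and 0 higher (over all genes, 10.2% were lower and 6.31% higher), with a median difference of -1.01. Their mean level ranged from 9.95 to 10.23 log2 units in the knockout-labelled arrays and from 11.03 to 11.19 in the wildtype arrays. The labelled tissue was thus present in both groups. The epithelium marker that did not pass was Ttr. It read 14.17 in the knockout-labelled and 14.21 in the wildtype arrays (difference -0.05, limma adjusted p = 0.718). Of 13 stroma and mural markers 10 were higher and 1 lower (mean levels 10.44 to 10.75 against 9.99 to 10.04), and of 12 macrophage markers 10 were higher and 0 lower (9.13 to 9.61 against 8.52 to 8.77). Of 12 neuron markers 0 passed. Their mean level was 9.10 in knockout-labelled replicate 2 and 7.65 to 8.13 in the other three, and 7.35 to 8.87 in the wildtype arrays. The part of these shifts in the fall of the members was not tested. In tissue RNA, fewer cells of a type and less RNA per cell cannot be told apart. The number of member probe sets that fell was 5 in each of the 8 fits that left out 1 array.

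On single arrays the members did not follow one order. Knockout-labelled replicate 1 was the lowest array for both Mitf probe sets, for 1444487_at of Lrat and for the mean of the epithelium markers. Knockout-labelled replicate 2 was the lowest for Rlbp1 and Rdh5. Among the wildtype arrays replicate 3 was the lowest for Rdh5, for 1444487_at of Lrat and for 1422025_at of Mitf.

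**Figure D4:**
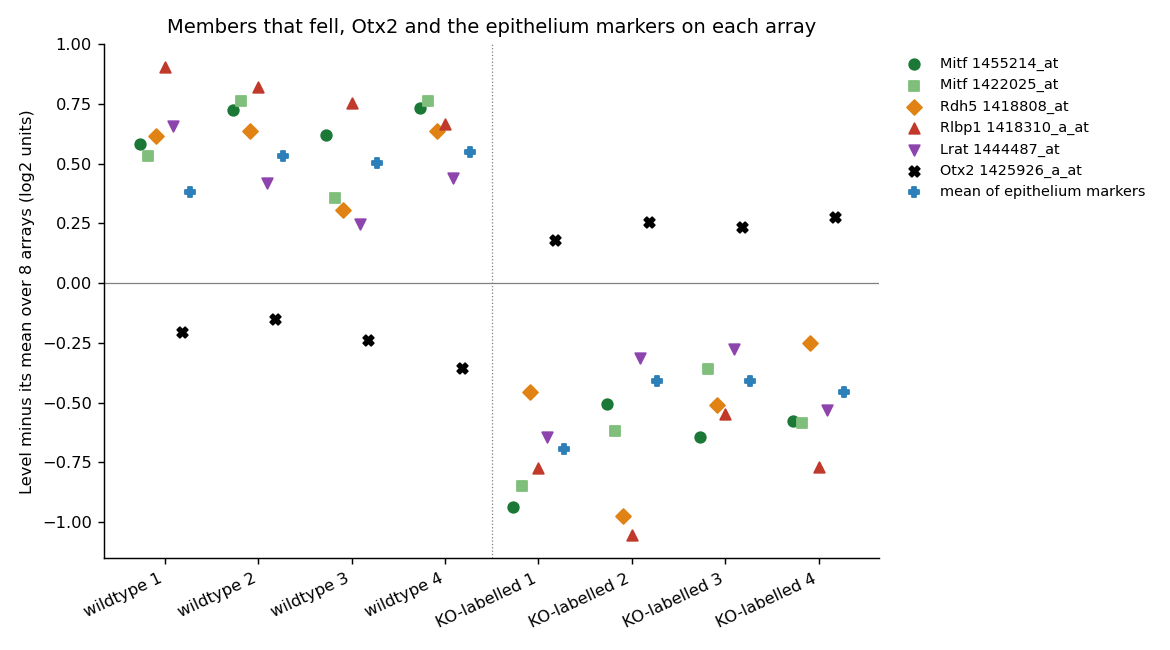
Level on each array minus its mean over the 8 arrays, in log2 units, for the 5 member probe sets that fell, Otx2 and the mean of 15 epithelium markers. Members and markers lie above 0 on all wildtype arrays and below 0 on all knockout-labelled arrays, and Otx2 lies the other way.

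The genes with the most similar profiles were sought among all other genes, by the root mean square distance over 8 arrays after each probe set's own mean was subtracted. Mitf (1455214_at) was nearest to Slc16a10, an aromatic amino acid and thyroid hormone transporter (distance 0.04 log2 units, difference -1.32), and to Pik3ap1, an adaptor of phosphoinositide 3-kinase (0.07, difference -1.30). Rlbp1 was nearest to the collagen chain gene Col4a4 (0.14, difference -1.40) and the ascorbate transporter gene Slc23a2 (0.14, difference -1.48). Rdh5 was nearest to Spag17, a gene of the motile cilium (0.12, difference -1.14), and Dhdh, a dihydrodiol dehydrogenase (0.12, difference -0.94). Lrat (1444487_at) was nearest to Mgll, the monoacylglycerol lipase (0.09, difference -0.84), and Eno4, an enolase of sperm (0.09, difference -0.80). The distance rests mostly on the difference between the groups, which all of these genes share.

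Of 12 other measured genes of the visual cycle 3 were lower, 0 were higher and 9 did not pass, with a median of -0.23 against 0.00 over all genes, of which 10.2% were lower. Abca4, the retinoid flippase of photoreceptor discs, went from 9.55 ± 0.05 to 8.27 ± 0.26 (difference -1.28, SE 0.12, limma adjusted p = 0.0001). The retinol dehydrogenase genes Rdh11 and Rdh12 differed by -0.47 (limma adjusted p = 0.00478) and -0.43 (0.0353). Dimmer probe sets gave -0.34 for Rdh11 (0.0761) and -0.11 for Rdh12 (0.648). The Rdh12 call was lost without knockout-labelled replicate 1 and without each wildtype array in turn (limma adjusted p up to 0.103).

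Of 31 other melanosome genes 6 were lower, 2 were higher and 23 did not pass, with a median of -0.01 (over all genes, 10.2% were lower and 6.31% higher). Myrip, which links Rab27a-coated granules to myosin motors, fell the most, from 8.62 ± 0.18 to 6.22 ± 0.36 (difference -2.39, SE 0.17, limma adjusted p = 2.35e-05). The copper pump Atp7a, which supplies tyrosinase with copper, differed by -0.53 (limma adjusted p = 0.000363). The unconventional myosin Myo7a differed by -0.73 (0.0114), and Oca2, a melanosome membrane transporter, went from 9.59 ± 0.16 to 9.02 ± 0.24 (-0.57, 0.0149). Lyst, a regulator of lysosome-related organelles, differed by -0.58 (0.026), though dimmer probe sets gave -0.03 and -0.28 and did not pass.

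The remaining calls of that list were named after their values were seen. Mreg, the melanosome transport gene melanoregulin, was lower by a difference of -0.25 (limma adjusted p = 0.0481), and the melanosome biogenesis genes Rab32 and Bloc1s6 were higher by 0.43 (0.0277) and 0.23 (0.0428). Dimmer probe sets of Bloc1s6 pointed the other way, at -0.15 (limma adjusted p = 0.335) and -0.02 (0.953), and did not pass. With the replicate block Mreg (0.0788) and Bloc1s6 (0.0717) lost the call. Mreg also lost it with the trended robust prior (limma adjusted p = 0.0935), and Bloc1s6 with arrays centred on their medians (0.0748). The list's 8 calls became 4 without wildtype replicate 2, 3 or 4 or knockout-labelled replicate 1, and 5 when knockout-labelled replicate 3 or 4 was left out. Lyst lost its call without knockout-labelled replicate 1 or any 1 wildtype array (limma adjusted p up to 0.0737), and Rab32 without any array but knockout-labelled replicate 2 and wildtype replicate 1 (up to 0.0822). Bloc1s6 lost it without any array but wildtype replicate 1 (up to 0.114), and Mreg without any but knockout-labelled replicate 2 (up to 0.130).

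Among the relatives of Mitf and the regulators of pigment cells, 3 of 16 measured genes were higher, 2 were lower and 11 did not pass, with a median of 0.14. Over all genes 6.31% were higher and 10.2% lower, so the 2 lower are a share near that of all genes. The endothelin receptor gene Ednrb differed by -0.47 (limma adjusted p = 0.00459) and the Sox factor gene Sox9 by -0.36 (0.0124). Kitl, the ligand of the Kit receptor on melanoblasts, was higher by 0.48 (0.0312), the zinc finger factor gene Zeb2 by 0.35 (0.0323) and Edn3, a ligand of Ednrb, by 0.54 (0.0430). With the replicate block Zeb2 did not pass (limma adjusted p = 0.0616). In the fits that left out 1 array, Kitl kept its call only without knockout-labelled replicate 2 and without wildtype replicate 1 (elsewhere up to 0.0938). Zeb2 kept it when replicate 1 of either group or knockout-labelled replicate 2 was left out (elsewhere up to 0.0935). Edn3 kept it only when knockout-labelled replicate 4 or wildtype replicate 3 was the array left out (elsewhere up to 0.116), and it also lost it with array weights (limma adjusted p = 0.0511) and quantile normalization (0.0590). The list's 5 calls were then 2 or 3 in 6 of the 8 fits. The dimmer probe sets of Kitl gave 0.27, 0.02 and 0.26, and none passed. Of the dimmer Edn3 probe sets, 1438696_at passed (difference 0.63, limma adjusted p = 0.00533, groups apart). The others gave 0.35 (0.0992) and 0.28 (0.112) and did not pass.

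Genes used as markers of other cells that could hold these transcripts were read beside them. Whether the choroid plexus itself holds a listed gene was not tested. A call in these lists thus does not place the gene in the cell type named. Over all genes 10.2% were lower and 6.31% higher, so 1 call in a list of this size is near that share. Of 9 melanoblast and neural crest markers 1 was lower (Ednrb) and 1 higher, the factor gene Snai2 by 0.64 (limma adjusted p = 0.00761), though a dimmer Snai2 probe set gave 0.26 (0.209). Their mean level was 7.21 to 7.52 log2 units in the knockout-labelled arrays and 7.08 to 7.30 in the wildtype arrays. Ednrb, Kit, Pax3 and Sox10 were also counted among the regulators of pigment cells, and Mlana among the melanosome genes. Of 9 markers of the retinal pigment epithelium outside the members 2 were lower, 1 was higher and 6 did not pass. Their mean levels were 6.52 to 6.66 in the knockout-labelled arrays against 6.71 to 6.83. Rrh, Stra6 and Rgr were also counted among the visual cycle genes, and Tfec among the relatives of Mitf. The ion channel gene Trpm3, at a mean of 10.59 in the wildtype arrays, differed by -0.98 (limma adjusted p = 0.000171). The lactate transporter gene Slc16a8 differed by -0.81 (0.000943), though a dimmer probe set gave -0.12 (0.497). Serpinf1, which encodes the secreted factor PEDF, was higher by 0.67 (0.00353), though a dimmer probe set gave 0.30 (0.0772) and did not pass. A count of 5 of the pigment epithelium markers passed without knockout-labelled replicate 2.

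Of 11 photoreceptor and pineal markers 1 was lower and 0 higher, and 10 of the 11 had means under the median of all probe sets. Over all genes 10.2% were lower and 6.31% higher, so the 1 lower gene is a share near that of all genes. The one was Sag, the visual arrestin, at 4.96, 4.97, 4.84 and 5.05 in the knockout-labelled arrays and 5.91, 6.01, 5.85 and 5.94 in the wildtype arrays. The groups stood apart by more than their spread (difference -0.97, SE 0.07, limma adjusted p = 2.76e-05). The list's mean level was 4.48 to 4.81 against 4.71 to 4.90, and 3 of its genes passed without knockout-labelled replicate 2. The genes named from the lists had 29 further, dimmer probe sets, for 14 of them, of which 11 passed in the same direction and 0 in the opposite one (limma). The rest did not pass, and among these the Bloc1s6 probe sets had the opposite sign.

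**Figure D5:**
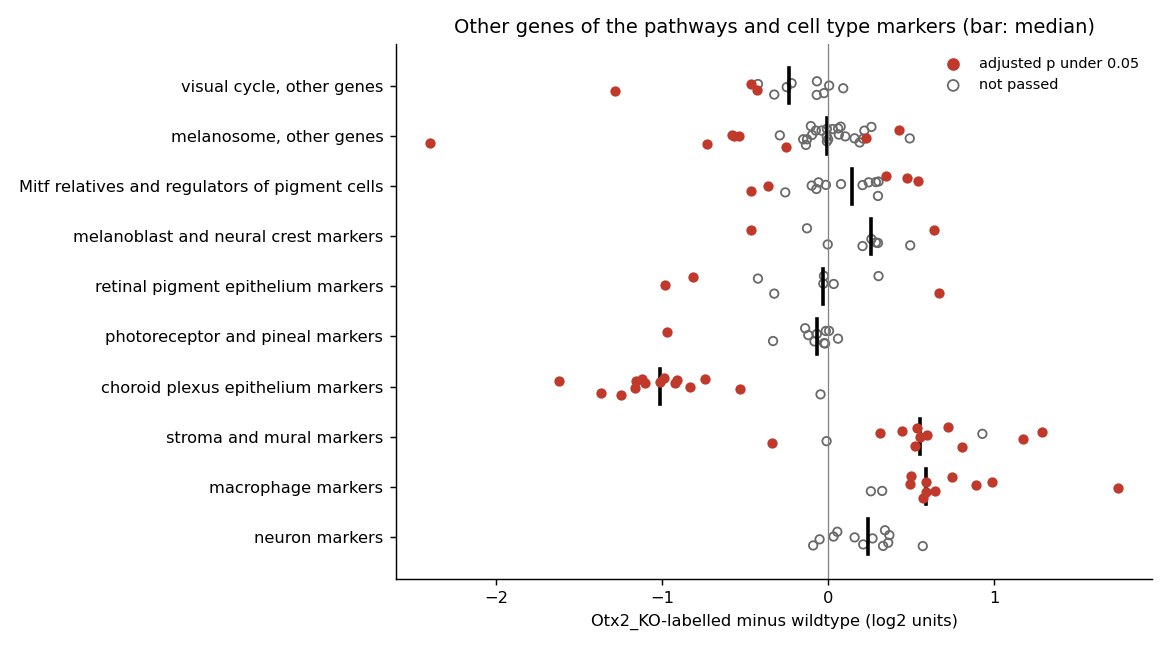
Knockout-labelled minus wildtype difference in log2 units of each gene in the lists of related genes and cell type markers, each gene by its brightest probe set, with the median of each list as a bar. The epithelium markers, apart from Ttr, lie around -1.01, while the melanosome and photoreceptor lists centre near 0 with single genes far below it.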

How the data were processed

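The authors deposited 1 log2 level for each probe set and array, made with RMA, per the submitters' processing notes. The sources used here name no software version or filter. RMA brings the distributions of the arrays close to one another, so a change in total RNA per cell is not seen. Differences of dim probe sets are compressed. Array medians were 5.89 to 5.90 in the knockout-labelled arrays and 5.85 to 5.88 in the wildtype arrays, so a small offset remained. Of the pairs of arrays 0 were identical. The number of arrays limits the precision.

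The platform annotation gave 1 gene to 34945 of 45037 probe sets, several to 932 and none to 9160; 64 control probe sets were left out. Knockout-labelled and wildtype arrays were compared with limma 3.58.1 in R 4.3.3 (lmFit, eBayes, two-sided, genotype only, no filter on low levels), with Benjamini-Hochberg adjustment over all probe sets and a threshold of 0.05. Every adjusted p in the text is from this test, or from limma under the alternative or without the array named beside it, unless an exact permutation test is named. In lists, a gene was read from its probe set with the highest mean over 8 arrays; 140 of 155 list entries were measured, and the others are not analysed here. The p-values measure the spread between these samples.

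All member probe sets are named. In each list up to 5 called genes with the smallest p (3 for markers) are named. The epithelium, stroma, macrophage and neuron lists are given as counts only, apart from Ttr, the epithelium marker that did not pass. The members, lists and tests were chosen with earlier results of these data known. Alternatives were a replicate block, 1 probe set per gene, array weights, a trended robust prior, median centring, quantile normalization, a filter on dim probe sets, a threshold of 0.01 and leaving out each array. The main fit did not use pairs. In the replicate block and the sign-flip tests, replicate numbers were taken as pairs, on the values only. After group means were subtracted, knockout-labelled and wildtype arrays of one number correlated over probe sets at 0.180, 0.275, 0.121 and 0.213. Each was above the 0.1 required. The highest correlation between arrays of different numbers was 0.261, above those of numbers 1, 3 and 4, so the ground for pairing is weak. Comparisons between 2 probe sets of a gene were chosen once the data had been seen, as was their sign-flip test within numbers. The code of the fit was run on simulated arrays with independent noise, where it recovered large changes more often than small ones. Any such fit would give that order. The simulation did not copy the correlation between arrays or probe sets, so it checks the code only.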

Additional observations from a re-analysis of the deposited data

Results flagged for a closer look

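Of 32 sets of 4 arrays examined (15 member probe sets and Otx2, in both groups), 1 held an array far from the others. This was wildtype replicate 3 for Rdh5, at 8.06 log2 units, whose gap to the next array was 0.94 of the group's range, above Dixon's critical value for 4 arrays. Chance alone marks about 1 set in 20. Without that array the Rdh5 difference was -1.18 (limma adjusted p = 0.00205).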

How the results depend on the processing

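The 5 member probe sets that fell stayed past the threshold, in the same direction, under every alternative run that gave them a value, with differences from -1.39 to -1.24 and -1.29 to -1.12 (Mitf), -1.65 to -1.48 (Rlbp1), -1.20 to -0.95 (Rdh5) and -0.95 to -0.81 (Lrat). The filter on dim probe sets kept 5 of the 15 and so gave the 1444487_at probe set of Lrat no value, and 1 probe set per gene gave 1422025_at of Mitf none. The replicate block, which treats same-numbered arrays as pairs, brought the member probe sets called higher from 0 to 1 (Dct, limma adjusted p = 0.0386), as did 1 probe set per gene, array weights and the trended robust prior, each with 1; the range without 1 array was 0 to 1. It also brought the photoreceptor and pineal calls from 1 to 2, and apart from those of Dct, Zeb2, Mreg and Bloc1s6 it changed no call of a named gene. The contrasts between 2 probe sets, which had not passed, did not pass with sign flips within numbers (adjusted p from 0.188 to 0.75).

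Over all probe sets, 2373 were higher and 3362 lower. With 1 probe set per gene these counts were 1426 and 2131, over fewer features, and at a threshold of 0.01 they were 854 and 1942. Arrays centred on their medians gave 1920 higher and 3818 lower, and quantile normalization gave 2624 and 3565. Array weights gave 3977 higher, and the fits without 1 array ranged from 1346 (without wildtype replicate 3) to 3971 (without knockout-labelled replicate 2). At 0.01 the melanosome list had 2 calls and the regulators of pigment cells 1, and without 1 array they had 4 to 8 and 2 to 5. Photoreceptor and pineal calls were 2 with array weights, 0 above the median level and 1 to 3 without 1 array. The pigment epithelium markers had 3 to 5 and the neuron markers 0 to 1 without 1 array. Of the values near 0, Rpe65 turned to -0.067 with array weights and -0.016 with median centring (-0.092 to 0.088 without 1 array), Tyrp1 1415862_at to -0.071 and -0.014 (-0.11 to 0.11), and Pmel ranged from -0.072 to 0.046 without 1 array. The cause of these changes was not tested. Signals under the lower quartile, among them all of Tyr and that of Rpe65, set the limit: a transcript below background has no measured difference.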
